A study of Rattus norvegicus with 48 samples.

Results

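Adiponectin, encoded by Adipoq, is a hormone that fat cells secrete into the blood. The gene was set by a rule that names its Ensembl ID, ENSRNOG00000001821, and uses no values. Earlier results of these data were known when it was chosen. Of the 2 IDs named by the rule, for leptin and adiponectin, 1 is described here, among 23481 gene IDs in the count table; leptin (ENSRNOG00000005597) was not analysed here. RNA came from visceral adipose tissue (VAT) and subcutaneous adipose tissue (SAT) of male adolescent rats, exercised or sedentary, at the late or early active phase; rats are active at night. The groups were late active phase exercise (LAE) and its sedentary control (LAC), both at zeitgeber time 23 (hours after lights on), and early active phase exercise (EAE) and its sedentary control (EAC), both at zeitgeber time 13. Each group held 6 rats and both depots of each rat were sequenced, giving 48 libraries from 24 rats. Per the labels' protocols, tissue of all groups was taken on postnatal day 61, 24 hours after the last exercise session. The strain, the kind of exercise and the fat pads that were sampled are not stated in the labels. The phase groups are different rats, so that the time of day and any difference in handling between the groups cannot be told apart.

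Adiponectin is made almost wholly by mature adipocytes, so that its transcript also serves as a marker of these cells in whole fat. The protein circulates as trimers and larger multimers, acts on liver and muscle through the receptors AdipoR1 and AdipoR2, and is known for raising fatty acid oxidation and insulin sensitivity. In human obesity its blood level is low although fat mass is high.

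The 250 bases before the RefSeq transcription start of rat Adipoq are shown because every difference below is one of the level of its transcript. This stretch lies at chr11:91240170-91240419 on the minus strand of GRCr8, a later build than the rn6 of the count table, and 53.2% of its bases are G or C.
Adipoq, 250 bases before the start: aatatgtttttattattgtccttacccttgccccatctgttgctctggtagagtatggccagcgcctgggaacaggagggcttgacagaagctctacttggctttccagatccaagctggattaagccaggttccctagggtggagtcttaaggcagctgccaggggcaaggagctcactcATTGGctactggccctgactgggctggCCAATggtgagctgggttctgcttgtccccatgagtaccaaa
The capitals mark CCAAT and its reverse complement, a motif looked for after the sequence had been read. It begins 69 bases before the start on the opposite strand and 42 bases before it on the gene's strand. Of 33469 rat promoter windows of this length, 34.0% held CCAAT on either strand. The E-box CACGTG (found in 5.59% of these windows on either strand), the nuclear receptor half-site AGGTCA (14.1%) and the TATA box TATAAA (12.9%) had 0 matches in the Adipoq window, which says only that these letters are not in it.

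Each library held 13163675 to 17890033 estimated counts, with a median of 15576425. Adipoq alone had 9014 to 163530 counts, so that counting error was at most 1.05% of a value, and the spread described below is spread between rats or samples. In all, 4 libraries stood apart from the other libraries of their depot. These were SAT LAE replicates 4 and 6, VAT EAE replicate 3 and VAT EAC replicate 5. Their median Spearman correlations with their depot lay more than 5 median absolute deviations below the depot median. Adipoq was lowest in these libraries in either depot, so its results are given with and without them.

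Visceral fat carried more Adipoq transcript than subcutaneous fat. In CPM (the count per 1000000 counts of the library's TMM-adjusted total), the 24 VAT libraries ranged from 5220 to 10277 CPM with a median of 8878 CPM. The 24 SAT libraries ranged from 486 to 6814 CPM with a median of 4732 CPM. The depots overlapped little: 22 VAT libraries lay above every SAT library, and the other two VAT libraries were those that stood apart. Without the 4 libraries the TMM-scaled ranges, 6962 to 10277 CPM in VAT and 3160 to 6814 CPM in SAT, no longer overlapped. As a share of all counts they still did, with a lowest value of 0.643% in VAT and a highest of 0.712% in SAT. The TMM factors of these libraries were 0.853 to 1.07 in VAT and 0.956 to 1.13 in SAT, which widens the gap in CPM. In bulk tissue, fewer adipocytes and less transcript per adipocyte cannot be told apart.

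Late exercised rats had 6962 to 9347 CPM in VAT (median 8473 CPM) and 486 to 5036 CPM in SAT (median 4335 CPM). Late sedentary rats had 7166 to 10107 CPM in VAT (median 9033 CPM) and 3160 to 5726 CPM in SAT (median 4152 CPM). In these late groups every VAT library lay above every SAT library. Early exercised rats had 5220 to 10277 CPM in VAT (median 9220 CPM) and 3591 to 6814 CPM in SAT (median 5491 CPM). Early sedentary rats had 6482 to 9643 CPM in VAT (median 8636 CPM) and 3807 to 6615 CPM in SAT (median 5317 CPM). In the early groups the depots overlapped, through the VAT library that stood apart in each group.

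**Figure D1:**
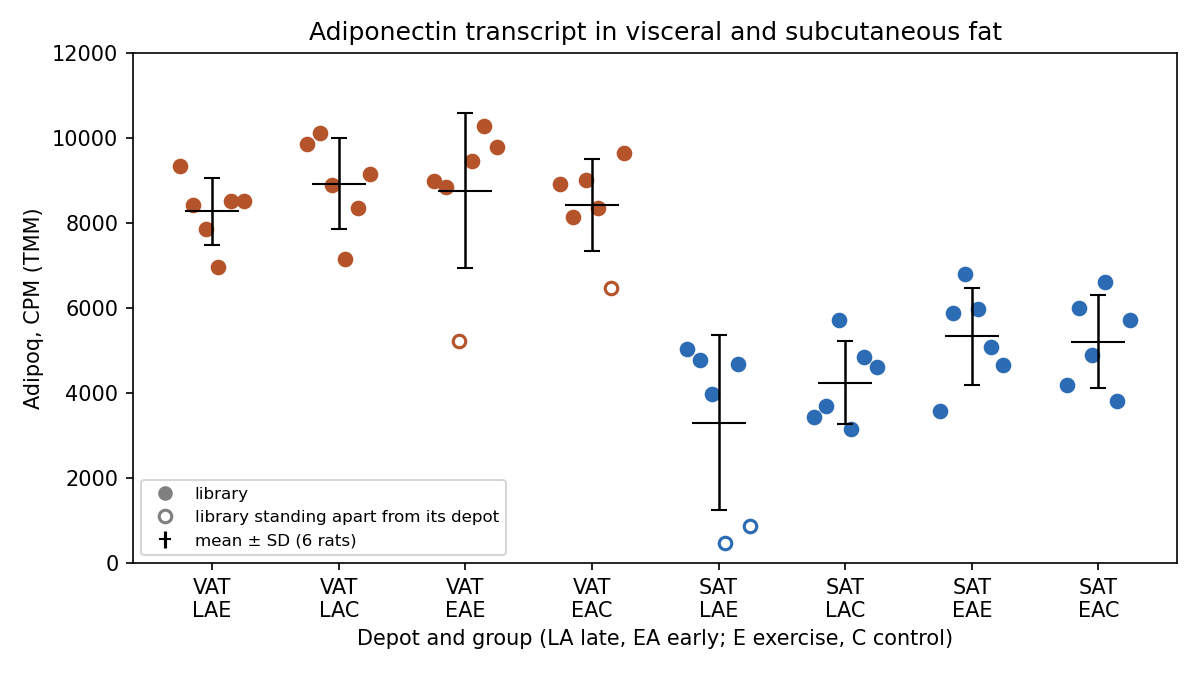
Adipoq level in CPM (TMM-scaled) for each of the 48 libraries, by depot and group (LA, late; EA, early; E, exercise; C, control). Points are single libraries in order of replicate number, open points the 4 libraries that stood apart, and bars the mean ± SD of 6 rats. The VAT mean lies above the SAT mean in each group, and the open points are the lowest of their groups, at 5220 and 6482 CPM in VAT and at 486 and 885 CPM in SAT.

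As means, Adipoq stood at 8274 ± 797 CPM in LAE, 8928 ± 1073 CPM in LAC, 8765 ± 1815 CPM in EAE and 8425 ± 1087 CPM in EAC in visceral fat (SD, n = 6 each). In subcutaneous fat it stood at 3308 ± 2065 CPM in LAE, 4246 ± 982 CPM in LAC, 5337 ± 1135 CPM in EAE and 5205 ± 1094 CPM in EAC. This was 0.748% ± 0.0801 to 0.851% ± 0.0781 of all counts in the VAT groups and 0.334% ± 0.199 to 0.555% ± 0.125 in the SAT groups (SD, n = 6 each). The order of the 8 group means was VAT LAC, VAT EAE, VAT EAC, VAT LAE, SAT EAE, SAT EAC, SAT LAC and SAT LAE. Of the 7 neighbouring pairs in this order, 1 differed beyond its spread. It was the step between the depots, VAT LAE over SAT EAE (exact permutation test, two-sided, p = 0.00216, adjusted p = 0.0152 over the 7 pairs, 6 libraries each). With CPM of the library total alone this step no longer passed (p = 0.0108, adjusted p = 0.0758, same exact test). The other 6 pairs had adjusted p of 0.462 to 0.851 by the same exact test, and their order is not resolved.

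Over the 4 groups Adipoq was 1.93-fold higher in VAT than in SAT (95% confidence interval 1.57 to 2.37; log2 0.95 ± 0.15 SE; adjusted p = 4.83e-07, edgeR's quasi-likelihood test with Benjamini-Hochberg adjustment). This fit and those of the single groups below used TMM totals and had no term for the rat. With CPM of the library total alone the group means lay closer, at 7480 to 8505 CPM in VAT and 3343 to 5547 CPM in SAT. The depot fold was not tested with that scaling. In the TMM comparison over the 4 groups 27.8% of all 14693 tested genes were called higher in VAT, so that being called is common here. Group by group it was called in both late groups. The difference was 2.50-fold in LAE (1.65 to 3.78; adjusted p = 3.68e-04, edgeR), where 21.3% of all genes were called higher, and 2.10-fold in LAC (1.39 to 3.17; adjusted p = 0.00447, edgeR), where 16.8% were. In the early groups the difference did not pass: it was 1.64-fold in EAE (1.09 to 2.47; adjusted p = 0.0726, edgeR; 11% of all genes called higher) and 1.62-fold in EAC (1.07 to 2.44; adjusted p = 0.0827, edgeR; 11.1%).

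Without the 4 libraries that stood apart, Adipoq was called higher in VAT in all 4 groups and the folds drew together. They were 1.78-fold in LAE (adjusted p = 4.90e-05), 2.11-fold in LAC (8.30e-08), 1.77-fold in EAE (2.60e-05) and 1.69-fold in EAC (6.86e-05, edgeR). The mean over the groups was then 1.83-fold (1.66 to 2.02; adjusted p = 2.13e-13, edgeR). The log2 standard error of this mean was 0.07 without these libraries, against 0.15 with all libraries. Being called was common here too. Of 14744 tested genes, 2757 were called higher in VAT in LAE, 3125 in LAC, 2443 in EAE, 2480 in EAC and 4449 for the mean.

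With libraries of the same group and replicate number taken as 1 rat, the depots showed the same direction in 23 of 24 rats. In LAE rats VAT held 1.77 to 14.3 times the SAT level, with a median of 1.92. In LAC rats it held 1.55 to 2.87 times the SAT level, with a median of 2.12. In EAE rats the range was 0.766 to 2.50 with a median of 1.79, and in EAC rats 1.26 to 2.13 with a median of 1.69. The exception was EAE rat 3, with 5220 CPM in VAT and 6814 CPM in SAT; this VAT library stood apart, and its SAT value was the highest of the depot. The 2 ratios far above the rest belonged to LAE rats 4 and 6, at 14.3 and 9.62, whose SAT libraries stood apart; the other 4 LAE rats lay between 1.77 and 1.98.

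**Figure D2:**
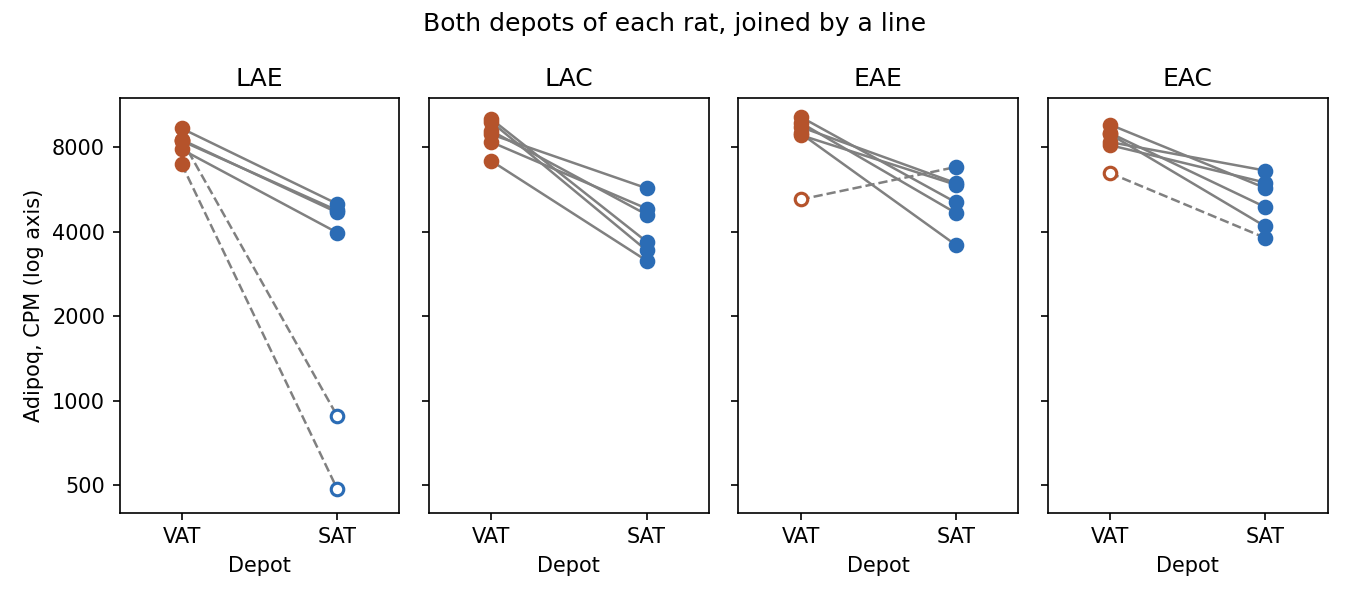
Adipoq in CPM on a log axis in VAT (left) and SAT (right) of each rat, with a line joining the depots of a rat, for LAE, LAC, EAE and EAC. Dashed lines with an open point mark the 4 rats with a library that stood apart. The lines fall from VAT to SAT in 23 of 24 rats, steeply in LAE rats 4 and 6, and rise only in EAE rat 3.

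An exact paired permutation test (two-sided, over the 6 rats of a group) gave p = 0.03125 in LAE, LAC and EAC, the smallest that 6 pairs allow, and p = 0.0625 in EAE. The adjusted p over the 4 groups was 0.0417 in the first 3 and 0.0625 in EAE. Over all 24 rats a permutation test gave p = 2e-05, the smallest that 100000 resamples can give. Without the 4 rats that had a library standing apart, 20 of 20 rats were higher in VAT, by 1.26 to 2.87 times. Fitting the rat as a block gave a mean over the groups of 2.09-fold (1.66 to 2.61, adjusted p = 4.33e-06, edgeR). This block kept Adipoq called in LAE (log2 1.72 ± 0.33 SE, adjusted p = 2.61e-04) and LAC (log2 1.09 ± 0.31 SE, adjusted p = 0.0086) and not called in EAE (adjusted p = 0.101) and EAC (adjusted p = 0.101, edgeR). With the rats of the 4 libraries left out, the block gave log2 0.88 ± 0.14 SE in LAE and 1.10 ± 0.12 SE in LAC.

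A rat with a high Adipoq level in one depot was not detectably high in the other. With group means removed, the log2 levels in VAT and SAT correlated at Pearson r = 0.158 (p = 0.331, adjusted p = 0.331 over 3 relations) and Spearman rho = -0.04 (p = 0.843) over 24 rats, by permutation of rats within groups. Without EAC rat 5 and EAE rat 3, the farthest from the median in VAT, r was 0.362 (permutation p = 0.155). Over the 20 rats with no library standing apart it was 0.091 (permutation p = 0.764). The higher level in VAT was seen in 23 of 24 rats, while a shared rank of the depots within a group was not shown.

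Whether the time of day moved the transcript was read from late against early rats of the same depot and activity. In VAT the sedentary groups averaged 8928 CPM in LAC and 8425 CPM in EAC, a fold of 1.06 (95% confidence interval 0.881 to 1.26; adjusted p = 0.771, edgeR). The exercised groups averaged 8274 CPM in LAE and 8765 CPM in EAE, a fold of 0.937 (0.782 to 1.12; adjusted p = 0.647, edgeR). The groups overlapped in both cases. In these comparisons 11.3% and 21% of all 13883 genes were called in either direction. Without the VAT libraries that stood apart, the exercised fold was 0.863 (0.762 to 0.978), which did not pass over all genes (adjusted p = 0.0806, edgeR).

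In SAT Adipoq had lower means late than early, with overlapping groups and no call. The sedentary groups averaged 4246 CPM in LAC and 5205 CPM in EAC, a fold of 0.818 (0.470 to 1.42; adjusted p = 0.791, edgeR). The exercised groups averaged 3308 CPM in LAE and 5337 CPM in EAE, a fold of 0.617 (0.354 to 1.08; adjusted p = 0.212, edgeR). Without LAE replicates 4 and 6 the LAE mean was 4619 ± 452 CPM (SD, n = 4) and the exercised fold 0.866 (0.663 to 1.13; adjusted p = 0.520, edgeR). The share of all 14372 genes called in either direction was 3.22% for the sedentary and 17.3% for the exercised comparison. An exact permutation test of log2 CPM gave p = 0.132 for the sedentary and p = 0.0758 for the exercised SAT comparison, with an adjusted p of 0.528 for both over 8 comparisons. The smallest p that 6 against 6 libraries allow is 0.00216.

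A difference of the phase effect between depots was not shown. The late over early ratio was 1.41 times as large in VAT as in SAT, averaged over activity (95% confidence interval 0.936 to 2.11; adjusted p = 0.333, edgeR), against 6.83% of all genes called. Without the 4 libraries this ratio of ratios was 1.12 (0.921 to 1.37; adjusted p = 0.574, edgeR).

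Exercise was compared with sedentary control within a phase and depot, which is the question posed by the title of the series. Adipoq passed in none of the 4 comparisons with edgeR. In VAT at the late phase LAE averaged 8274 CPM and LAC 8928 CPM, a fold of 0.927 (95% confidence interval 0.774 to 1.11; adjusted p = 0.804, edgeR). At the early phase EAE averaged 8765 CPM and EAC 8425 CPM, a fold of 1.04 (0.871 to 1.25; adjusted p = 1, edgeR). The groups overlapped at both phases. In VAT edgeR called 0% of genes at either phase, with 1557 genes late and 345 early at an unadjusted p under 0.05; DESeq2 called 43 and 0, and limma voom 200 and 0.

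In SAT at the early phase EAE averaged 5337 CPM and EAC 5205 CPM, a fold of 1.03 (0.591 to 1.79; adjusted p = 1, edgeR). There edgeR called 0% of genes, with 131 at an unadjusted p under 0.05, DESeq2 3 and limma voom 0. At the late phase LAE averaged 3308 CPM and LAC 4246 CPM, a fold of 0.777 (0.446 to 1.35; adjusted p = 0.538, edgeR), in a comparison where 11.5% of all genes were called. This direction rested on LAE replicates 4 and 6, at 486 and 885 CPM. The other 4 LAE libraries held 3978 to 5036 CPM and lay within the LAC range of 3160 to 5726 CPM. Without the 2 libraries the fold was 1.09 (0.833 to 1.42, adjusted p = 0.759, edgeR). Of 14505 tested genes 310 were then called, against 1654 with all libraries. A fit of the LAE and LAC libraries alone called 0 genes.

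The spread of Adipoq in the subcutaneous LAE group was the widest of the 8 groups, with a coefficient of variation of 62.4%, against 9.64% to 23.1% in the other 7. Without replicates 4 and 6 it was 9.79% over 4 libraries. Without the library that stood apart, the coefficient was 6.20% in VAT EAE and 6.67% in VAT EAC, over 5 libraries each, against 20.7% and 12.9% with it. In the fit of all 24 SAT libraries the biological coefficient of variation of Adipoq was 46.0%, above that of 83.6% of tested genes, and in VAT it was 15.0%, above that of 55.9%.

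Whether exercise acted differently at the phases, or in the depots, was tested as an interaction. The exercise fold at the late phase over that at the early phase was 0.888 in VAT (95% confidence interval 0.688 to 1.15; adjusted p = 0.901, edgeR) and 0.755 in SAT (0.345 to 1.65; adjusted p = 0.726, edgeR). The SAT value was 1.06 without LAE replicates 4 and 6 (0.739 to 1.51, adjusted p = 0.936, edgeR). The VAT value was 0.853 without the VAT libraries that stood apart (0.714 to 1.02, adjusted p = 0.560, edgeR). Leaving out VAT EAE replicate 3 alone gave 0.820 (0.675 to 0.995, adjusted p = 0.472, edgeR), which did not pass over all genes. The exercise fold in VAT over that in SAT was 1.19 at the late phase (0.669 to 2.12; adjusted p = 0.795, edgeR) and 1.01 at the early phase (0.570 to 1.80; adjusted p = 1, edgeR). At the late phase it was 0.847 without the libraries that stood apart (0.641 to 1.12; adjusted p = 0.780, edgeR). In all 4 interaction tests edgeR called 0% of genes, while 975, 2411, 2464 and 157 had an unadjusted p below 0.05 in the order given; DESeq2 called 2, 184, 172 and 5, and limma voom 0, 1, 0 and 0. A p that misses the threshold does not show that the groups were alike, and the SAT intervals are wide.

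**Figure D3:**
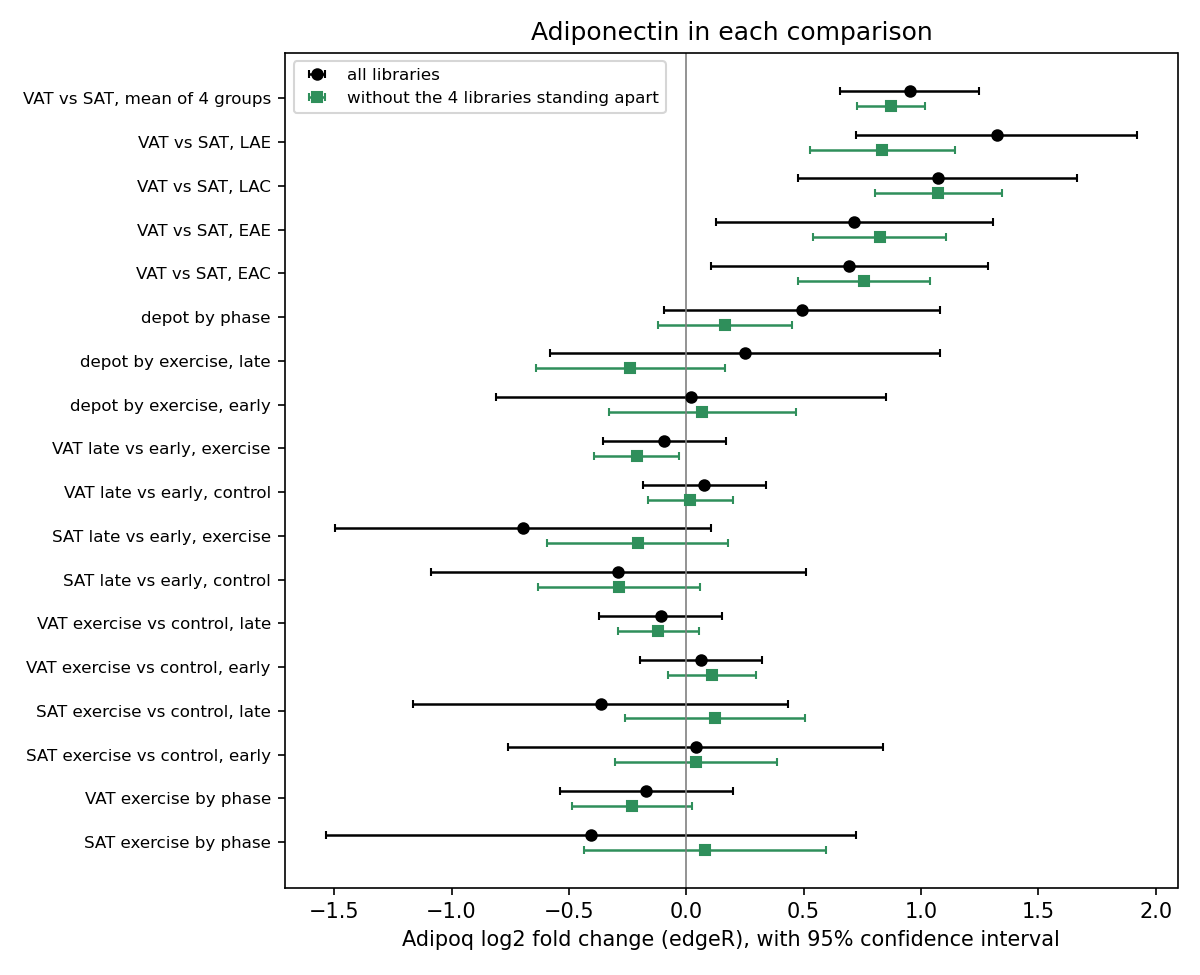
Adipoq log2 fold change with its 95% confidence interval (edgeR) for each of the 18 comparisons, with all libraries (black circles) and without the 4 libraries that stood apart (green squares). Values right of 0 are higher in the first-named group. For the interactions they mean a more positive log2 fold change in VAT than in SAT, or late than early for exercise by phase. This need not be the larger change. The intervals of the depot comparisons lie right of 0, at 0.95 for the mean of 4 groups, and those of phase and exercise with all libraries include 0.

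The 4 libraries that stood apart differed in how far Adipoq fell below the rest of the depot. SAT LAE replicate 4, at 486 CPM, lay 9.89-fold below the median of the other 22 SAT libraries (4809 CPM). Among 10957 genes with a mean of at least 5 CPM, 0.712% lay at least as far below their own median in that library. SAT LAE replicate 6, at 885 CPM, lay 5.44-fold below that median, as 1.52% of genes did.

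In VAT the drop was smaller. VAT EAE replicate 3, at 5220 CPM, lay 1.71-fold below the median of the other 22 VAT libraries (8908 CPM), where 3.27% of genes lay as low. VAT EAC replicate 5, at 6482 CPM, lay 1.37-fold below it, where 9.02% of genes did. These drops describe libraries chosen for differing from the rest and carry no test.

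The same 4 libraries had the most detected genes of their depots. Genes with at least 1 count numbered 16975 and 17180 in SAT LAE replicates 4 and 6, against 14653 to 16587 in the other 22 SAT libraries. They numbered 17034 in VAT EAE replicate 3 and 16864 in VAT EAC replicate 5, against 15959 to 16455 in the other 22 VAT libraries. Among those 22 VAT libraries TMM-scaled Adipoq was lower where more genes were detected (Pearson r = -0.816, permutation p = 4e-05, adjusted p = 1.2e-04 over 3 relations; Spearman rho = -0.781, permutation p = 7e-05; group means removed). Without the 2 libraries farthest on the number of genes, LAE and LAC replicates 4, r was -0.665 (permutation p = 0.00343). The relation depended on the scaling: with CPM of the library total alone r was -0.396 (permutation p = 0.109) and rho -0.316 (permutation p = 0.185), and r was -0.111 (permutation p = 0.654) without the 2 libraries farthest on the number of genes. The TMM factor, by which the total is multiplied, itself correlated with the number of genes at r = 0.732 in these 22 libraries (permutation p = 7.5e-04). The 22 SAT libraries were parted at 16000 detected genes, a cutoff set after seeing the data, and no pooled value is given. In 16 of them, with 16287 to 16587 genes, r was -0.301 (permutation p = 0.289, adjusted p = 0.331) and rho -0.2 (permutation p = 0.476). Without SAT EAE replicate 2 and SAT EAC replicate 5, the farthest on the number of genes, r was -0.147 (permutation p = 0.656). The other 6, of which 3 were LAE, 2 LAC and 1 EAE, had 14653 to 15937 genes and 3160 to 5036 CPM of Adipoq. Among these 6, SAT EAE replicate 1 (14653 genes, 3591 CPM) and SAT LAC replicate 4 (15627 genes, 3160 CPM) had the fewest genes and the lowest Adipoq of their groups. SAT LAE replicate 1 (15411 genes, 5036 CPM) had the fewest genes and the highest Adipoq of its group. The relation over all 22 SAT libraries was not tested, and its direction is not resolved. The relation of Adipoq with detected genes was looked for after the values had been seen. The part of other cell types in the lower Adipoq levels was not tested.

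**Figure D4:**
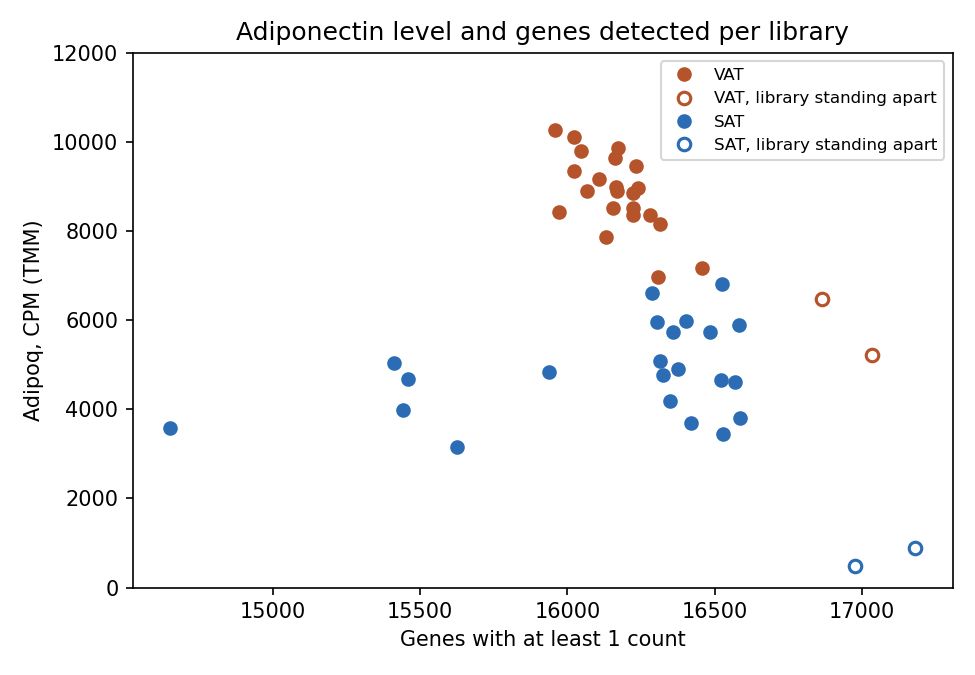
Adipoq level in CPM (TMM-scaled) against the number of genes with at least 1 count, for each library of VAT and SAT. Open points are the 4 libraries that stood apart; they lie at the right edge of their depot, at 16864 genes or more. The filled VAT points slope down from left to right (r = -0.816 with group means removed, but -0.396 with CPM of the library total alone). Of the filled SAT points, 6 lie below 16000 genes.

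The gene whose pattern was most like that of Adipoq was ENSRNOG00000009686, which the files do not pair with a symbol. With depot means removed, its log2 CPM correlated with Adipoq at Spearman rho = 0.928 over the 48 libraries, the highest of 10956 other genes with a mean of at least 5 CPM; the median gene stood at 0.0265. It ranged from 280 to 504 CPM in VAT (median 403 CPM) and from 21.9 to 306 CPM in SAT (median 218 CPM). In SAT LAE replicates 4 and 6 it held 21.9 and 35.9 CPM, and its lowest VAT library, at 280 CPM, was EAE replicate 3, the lowest for Adipoq as well. Without the 4 libraries its rho was 0.865, second among the genes, where the highest was 0.889. The libraries share their rats and their scaling, so these values are a description.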

How the data were processed

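Per the labels' protocols, polyA-selected RNA with an integrity number over 9 was sequenced as 50-nt single-end reads, 21 M on average. The authors deposited 1 table of estimated counts, held as whole numbers, for each gene ID and library. Salmon 1.4.0 and build rn6 come from the submitters' processing notes; the annotation release is not given there. Columns were matched through the library names, with 0 left without a sample. The IDs were not paired with symbols in the tables at hand (0 reference rows carried an Ensembl ID), so the pathway and marker lists were not analysed. Leptin, and with it the leptin to adiponectin ratio, was not analysed here. Adipoq is named from the rule, and the named genes are Adipoq and the gene most like it.

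Counts were tested over all genes with edgeR 4.0.16 in R 4.3.3 (TMM, filterByExpr, quasi-likelihood fit of the 24 libraries of a depot or of all 48, Benjamini-Hochberg at 0.05); the fits were tested on simulated data. CPM used the 48-library TMM totals. Standard errors are the log2 fold change over the square root of F. Permutation tests used scipy 1.17.1. The same replicate number was taken as the same rat, since the labels' protocols give 6 rats per group with both depots. Over genes the deviations of same-numbered depots correlated at a median of 0.147 (range -0.132 to 0.29). For other numbers of the same group the median was -0.0249 (range -0.276 to 0.307). Of the same-numbered pairs 16 of 24 exceeded 0.1, against 16 of 120 pairs with other numbers. In 28 of 10957 genes the deviations of same-numbered depots correlated over 0.8 across rats, against 0 genes in each of 5 shifts of the numbers within the groups. Alternatives were DESeq2 1.42.0 size factors and Wald test, limma 3.58.1 voom with quality weights, no filter, 2 groups only, replicate blocks and left-out libraries. The gene, the lists and the left-out libraries were chosen with earlier results of these data known; exact tests of log2 CPM, the rat block without 4 rats, the CCAAT motif and the relation with detected genes, with its other scalings, were added after seeing the data.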

Additional observations from a re-analysis of the deposited data

Results flagged for a closer look

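Adipoq was examined for a single library far from the others in 12 sets of 6 values, the 8 groups and the rat-by-rat depot differences of the 4 conditions. Of these sets 1 held such a value. Chance gives about 1 in 20 for a single set. As 12 sets were examined, 1 such value is not unusual, and the depot differences reuse the values of the groups. VAT EAE replicate 3, at 5220 CPM, lay below the other 5 libraries of its group by 0.718 of the group's whole range, above the critical value of Dixon's test for 6 values at the 95% level. It is also a library that stood apart over all genes, with 17034 detected genes. The low pair in SAT LAE, at 486 and 885 CPM, was not marked by this criterion, which looks at 1 value at a time.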

How the results depend on the processing

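Over the 475 values of the 18 comparisons and of the correlation across rats under alternatives, 448 kept their direction and side of the threshold, 9 newly passed it, 18 changed sign and 0 lost a call. Changes of sign were confined to comparisons that had not passed, and the cause was not tested. SAT exercise against control at the late phase (log2 -0.36) was 0.022 with limma voom and 0.12 without the 4 libraries that stood apart; the SAT exercise by phase interaction (-0.41) was 0.079 without them. The late depot by exercise interaction (0.25) was -0.18 with limma voom, -0.24 without the 4 libraries and -0.22 with the rat as a block and their rats left out. Leaving out 1 library at a time, SAT exercise against control at the early phase ranged from -0.045 to 0.14 and the early depot by exercise interaction from -0.070 to 0.14. The newly passing values were VAT against SAT in EAC and EAE. With the exact paired permutation test EAC passed at 0.71, with an adjusted p of 0.0417 over the 4 groups and not over all genes. Adjusted over all genes, the values in EAC and EAE were 0.72 and 0.77 with limma voom, and 0.76 and 0.82 without the 4 libraries. They were 0.69 and 0.93 with the rat block and their rats left out, and 0.72 in EAE with the DESeq2 Wald test (adjusted p = 0.0463). Leaving out 1 library, these ranged from 0.62 to 0.77 in EAC and from 0.62 to 0.82 in EAE, where leaving out VAT EAE replicate 3 let the call pass (adjusted p = 0.0423). In the late groups they ranged from 1.09 to 1.48 (LAE) and 1.00 to 1.16 (LAC).

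With all libraries, the replicate block by rat gave 0.71 in EAC, 0.72 in EAE, 1.09 in LAC and 1.72 in LAE (log2), and changed no call. Within a depot the replicate numbers name different rats. That block gave, for example, -0.46 for SAT exercise against control at the late phase, with no call. Scaled by the library total alone, the order of the 8 means was the same and the step from VAT LAE to SAT EAE had an adjusted p of 0.0758 by the exact test. Counting error was small for Adipoq at this depth; the log2 standard error of the mean depot difference was 0.15 with all libraries and 0.07 without the 4 that stood apart. The number of genes called, used as background, moved by over 1.5 times: from 463 to between 264 and 2849 for SAT phase without exercise, from 2492 to between 383 and 3410 with it, from 1654 to between 0 and 3067 for SAT late exercise, from 1575 to at most 2398 for VAT phase without exercise, from 1004 to between 426 and 1615 for depot by phase, and from 3189, 3264, 4670 and 7228 to as far as 5767, 5584, 7944 and 4454 for the depots in EAC, EAE, LAC and LAE. The comparisons with 0 calls reached at most 3 (SAT early exercise), 184 (SAT exercise by phase), 200 (VAT late exercise), 2 (VAT exercise by phase), 5 and 672 (depot by exercise, early and late).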
